A study of Mus musculus with 4 samples.

Results

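The cells described here are T cells of the mouse malignant pleural effusion that carried no transcript of the killing enzyme granzyme B and at least 1 transcript of a naive or memory gene. They were chosen by a rule on unique molecular identifiers (UMIs, the tags that mark single RNA molecules) in droplet single-cell RNA sequencing. A barcode was kept as a cell with at least 1000 UMIs, at least 200 genes and at most 10% of UMIs from mitochondrially encoded (mt-) genes. A kept cell was a member when the CD3 genes Cd3d, Cd3e and Cd3g summed to at least 2 UMIs, Gzmb was at 0, Il7r, Tcf7 and Lef1 summed to at least 1 UMI and Lyz2, a macrophage and neutrophil gene, was under 20 of every 10000 UMIs. The rule was met by 165 of 13578 kept cells, or by 165 of the 680 that met its CD3 and Lyz2 limits.

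C57BL/6 mice carried effusions of Lewis lung carcinoma, a mouse lung tumour line, and received 1 injection in the pleural space on day 11. It held PBS, or 1 µg of LNP-cGAMP, or 30 µg of anti-PD-L1 antibody, or LNP-cGAMP and anti-PD-L1 together (the combination). cGAMP is the cyclic dinucleotide that activates STING, a sensor adaptor upstream of interferon genes, and anti-PD-L1 blocks a ligand of the inhibitory receptor PD-1. Pleural fluid cells were taken on day 13, 48 h later, and each library was 1 pool of cells from 3 mice, so every treatment is 1 library and no difference between treatments has a replicate check or a test. Intervals given below are exact 95% intervals for counting error only.

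Naive and memory T cells depend on interleukin 7, whose receptor chain Il7r encodes, and on the transcription factors TCF-1 (Tcf7) and LEF-1 (Lef1). Such cells recirculate through lymph nodes with the homing receptor CCR7 and leave them by the sphingosine phosphate receptor S1PR1. On activation these genes are turned down, and CD8 T cells make granzymes and perforin. Memory CD8 T cells can keep such genes while they also carry transcripts such as Ccl5, a chemokine, Nkg7, a cytotoxic granule protein, and Ly6c2, a surface protein of memory and interferon-exposed T cells.

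The members numbered 48 (PBS), 35 (LNP-cGAMP), 56 (anti-PD-L1 alone) and 26 (combination), and all sets of 4 values below keep this order. Their UMIs summed to 284524, 349788, 409735 and 145333, with a median per cell of 4730, 6611, 5174 and 5579. No member barcode was shared between libraries. The defining markers were present: Cd3d was detected in 162 of 165 members, Il7r in 87.3%, Tcf7 in 75.2% and Lef1 in 70.9%, and 84 members had all 3 of the last genes. These genes chose the cells, so their detection only describes the choice. Nothing else in the rule fixed Ccr7, which was detected in 64.8% of members.

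Low amounts of macrophage transcripts were common in the members, and a few members stood apart in how much they carried. Lyz2, which the rule limits, was found in 109 of 165 members (66.1%), or in all but 5, 18, 26 and 7, and C1qb, a complement gene of macrophages, in 55.8%. Markers of macrophages, neutrophils, dendritic cells and B cells together made up at least 209.5 of every 10000 UMIs in 13 members and at most 79.2 in the other 152, as the plot of other-cell markers against UMIs per member shows. The 13, called mixed members here with a limit of 100 chosen after the data were seen, were 2, 6, 4 and 1 cells. They held 15.3%, 43.8%, 27.5% and 6.68% of all member UMIs, so comparisons between treatments are given with and without them. The summed level of the macrophage marker list was 1842, 10938, 3624 and 1514 counts per 1000000 UMIs (CPM) with them. No doublet caller was run, and whether a mixed member is a droplet with 2 cells or a T cell with free RNA cannot be told apart.

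**Figure D1:**
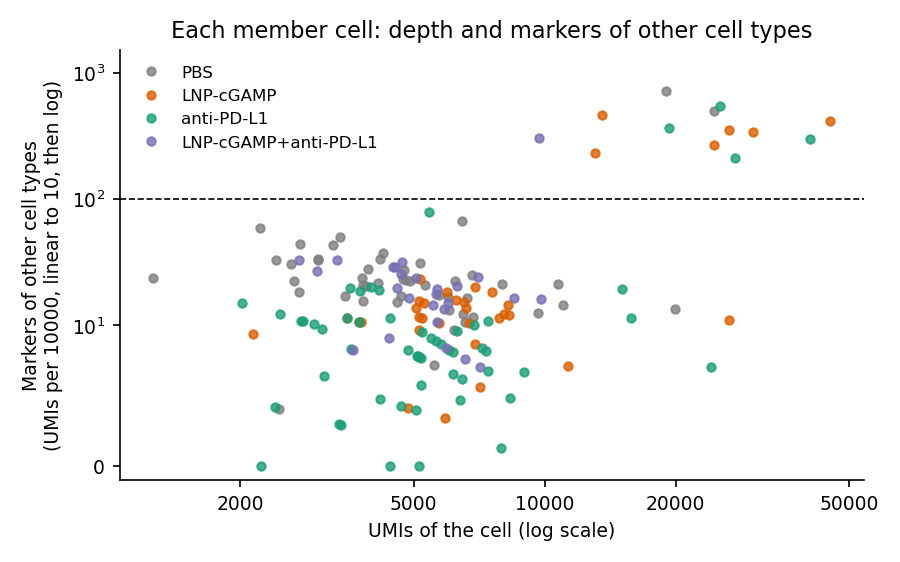
Each point is a member, drawn by its UMIs (x axis, log scale) and by the number of UMIs per 10000 that fall on macrophage, neutrophil, dendritic and B cell markers (y axis, linear up to 10 and log above). The dashed line is at 100, and the 13 mixed members lie above it, with none between 79.2 and 209.5.

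Members made up a small share of the effusion cells and a share of the T cells that differed widely between libraries. They were 1.70% (1.26 to 2.25%), 0.914% (0.637 to 1.27%), 1.66% (1.25 to 2.15%) and 0.733% (0.479 to 1.07%) of the kept cells. The PBS and anti-PD-L1 shares were nearly equal, and both lay above the intervals of the libraries given LNP-cGAMP. Of the cells that met the CD3 and Lyz2 limits, members were 60.8% (49.1 to 71.6%) of 79, 12.6% (8.96 to 17.1%) of 277, 39.2% (31.1 to 47.7%) of 143 and 14.4% (9.60 to 20.3%) of 181. The rest were nearly all Gzmb-positive, with 30, 225, 86 and 147 such cells, so the numbers of members lay between 26 and 56 while those of Gzmb-positive T cells lay between 30 and 225. Since the rule uses Gzmb, these shares describe the choice.

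The shares of kept cells depended on the limit for mt- transcripts. Members had a median of 6.47%, 4.62%, 6.10% and 5.68% mt- UMIs, against 2.87%, 0.842%, 2.85% and 1.75% in kept cells that were not T cells, and 112 of the 165 members lay above 5%. With a limit of 5% the members were 13, 22, 12 and 6, or 0.498%, 0.594%, 0.379% and 0.179% of kept cells, and LNP-cGAMP then stood above PBS. Their share of T cells was then 37.1%, 9.57%, 19.4% and 4.65%, so PBS stayed highest and anti-PD-L1 next.

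The limit on Gzmb is a single UMI. Gzmb was found in 1.03%, 23.6%, 4.27% and 17.3% of Lyz2-rich cells without CD3, which should lack it, at median depths of 31502, 18503, 29368 and 21522 UMIs, and the part of free RNA and of depth in the choice was not tested. Among T cells just outside the rule, 3, 13, 11 and 12 had exactly 1 Gzmb UMI. With these let in where they met the other limits, the share of T cells was 17.3% in LNP-cGAMP and 21.0% in the combination. At the other limits, 10 members had exactly 2 CD3 UMIs and 27 cells outside had 1; 9 members had a single UMI of Il7r, Tcf7 and Lef1 together, and 27 cells outside had none.

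**Figure D2:**
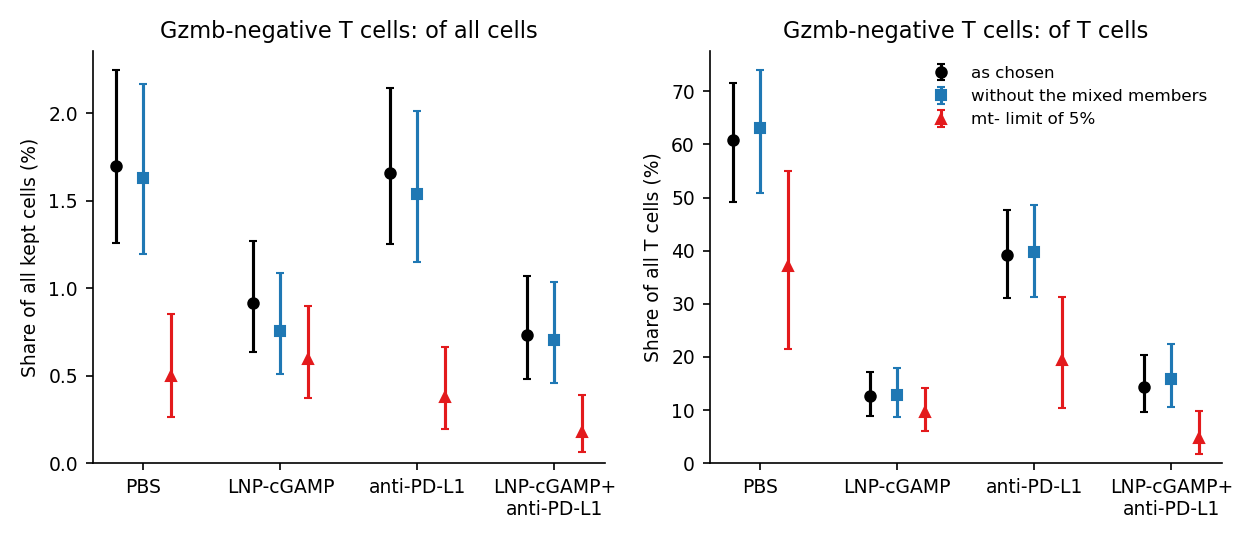
Members as a percentage of kept cells (left) and of T cells (right) in each library, with exact 95% Clopper-Pearson bars. Black circles are the members as chosen, blue squares leave out the mixed members and red triangles use an mt- limit of 5%, under which LNP-cGAMP (0.594%) lies above PBS (0.498%) on the left.

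CD8 cells outnumbered CD4 cells among the members of all 4 libraries. A Cd8a or Cd8b1 UMI with no Cd4 UMI was found in 26 of 48 (54.2%, 39.2 to 68.6%), 21 of 35 (60.0%, 42.1 to 76.1%), 33 of 56 (58.9%, 45.0 to 71.9%) and 16 of 26 (61.5%, 40.6 to 79.8%) members. Cd4 without either CD8 gene was found in 6 (12.5%, 4.73 to 25.2%), 5 (14.3%, 4.81 to 30.3%), 3 (5.36%, 1.12 to 14.9%) and 4 (15.4%, 4.36 to 34.9%) members. No member had UMIs of both, which by the limit of 3 counts in 165 cells allows up to 1.82% of members with UMIs of both and sets no limit on cells that express both. Neither was detected in 16, 9, 20 and 6 members, with median depths of 3828, 5713, 3866 and 4602 UMIs against 5870, 6925, 6166 and 5965 in the Cd8-only members.

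Of the members with Cd4 or CD8, the Cd8-only share was 81.3% (63.6 to 92.8%), 80.8% (60.6 to 93.4%), 91.7% (77.5 to 98.2%) and 80.0% (56.3 to 94.3%). The 4 intervals overlap, so no difference in the CD4 to CD8 balance was detectable at this number of cells. Cd8b1, the CD8 beta chain, was detected in 23, 19, 32 and 15 members and Cd8a, the alpha chain, in 22, 20, 30 and 13. In Lyz2-rich cells without CD3 a CD8 UMI was seen in 1.15%, 10.1%, 2.65% and 6.75%, several times below the members, and a Cd4 UMI in at most 0.218%. Foxp3, the factor of regulatory T cells, was found in 3 members (2 of PBS and 1 of anti-PD-L1).

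**Figure D3:**
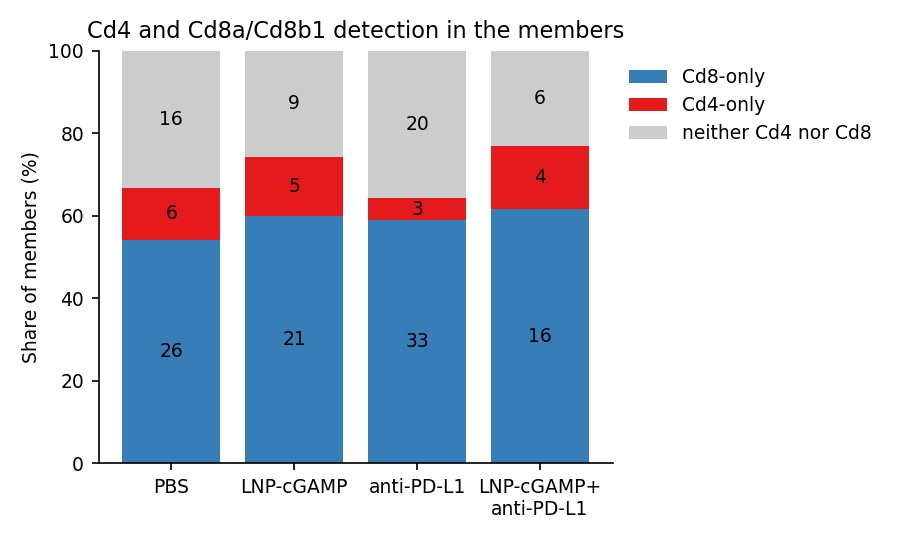
Percentage of members in each library that carry Cd8a or Cd8b1 only, Cd4 only, or neither, with the number of cells printed in each block. Cd8-only members are the largest class in each library, from 16 to 33 cells, and Cd4-only members number 3 to 6.

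Genes of circulation were detected in more members, and granzymes, perforin and checkpoint receptors in fewer, than in the other T cells. These values are set beside those of the 488 Gzmb-positive T cells as a description, since the rule divides the cells by Gzmb and the naive genes. Ccr7 was detected in 64.8% of members and 15.2% of Gzmb-positive T cells, and S1pr1 in 52.1% and 20.5%. Klf2, the factor that drives S1pr1, stood at 1193 CPM and 271 CPM. The survival gene Bcl2 stood at 1065 CPM and 158 CPM, and the chromatin organiser Satb1 at 314 CPM and 55.0 CPM. The Gzmb-positive cells held more UMIs per cell, with a median of 20435 against 5285, yet Ccr7 and S1pr1 were detected in a smaller share of them. Thinned to 1000 UMIs per cell, Ccr7 detection was 28.3% in members and 5.07% in Gzmb-positive cells.

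Granzymes, perforin, interferon gamma, the checkpoint receptors Pdcd1 and Lag3 and the division gene Mki67 were found in few members. Perforin (Prf1) was detected in 7 of 165 members, Gzma in 7, Gzmk in 3 and Ifng in 2, while each was detected in between 49.6% and 56.8% of Gzmb-positive T cells. The checkpoint receptors Pdcd1 (PD-1) and Lag3 were found in 12.1% and 7.27% of members, against 71.3% and 65.6%. Cells with more UMIs (greater depth) show more genes, and the Gzmb-positive cells held more UMIs. These percentages are not adjusted for depth, and its part in these differences was not tested. Mki67, a marker of dividing cells, was found in 5 members, and 30 of its 34 UMIs came from a single anti-PD-L1 cell. The whole lists reached more members. A UMI of the proliferation list was found in 47, 35, 56 and 26 members, and a UMI of the checkpoint list in 20, 19, 17 and 16. Other genes of cytotoxic cells were found in more of the members. Nkg7 was found in 63.0% of members, Ctsw in 52.7%, Ccl5 in 47.9%, Klrd1 in 46.1%, Cst7 in 39.4% and Klrk1 in 21.8%. Summed over the cytotoxic list, the level was 2921, 3765, 3846 and 4108 CPM in members. It was below the 7490, 11446, 9184 and 9681 CPM of Gzmb-positive T cells. At 1000 UMIs per cell Ccl5 was still found in 35.9% of members, and it stood at 1941 CPM over them. Ccl5 was also found in 10.1%, 52.5%, 10.8% and 37.7% of Lyz2-rich cells without CD3, and free RNA and their own expression were not separated.

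The difference between CD8 and CD4 members is the one comparison with replicates, since each of the 4 mouse pools gives both subsets. UMIs were summed per library and subset and tested with edgeR's quasi-likelihood test with library as a block and Benjamini-Hochberg adjustment; Cd4, Cd8a and Cd8b1 define the subsets and are not results. With all members, 2 of 920 genes were higher in Cd8-only members (0.217% of genes tested) and 4 lower (0.435%), against 111 at an unadjusted p under 0.05. The higher genes were Klrd1, the CD94 chain of killer-cell receptors (log2 difference 8.24, adjusted p = 0.0442), and Nkg7 (3.80, adjusted p = 0.0479). The lower genes were Ly6a (-1.31, adjusted p = 0.0116), Ifi27l2a (-1.53, adjusted p = 0.0116), Btg1 (-1.45, adjusted p = 0.0442) and Ifit1 (-2.15, adjusted p = 0.0442).

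Without the mixed members, 90 Cd8-only and 16 Cd4-only cells, 10 of 639 genes were higher in Cd8-only members (1.56%) and 13 lower (2.03%), with 128 at an unadjusted p under 0.05. The Cd4-only sums were shallow, at 19461, 20726, 13017 and 15790 UMIs against 161713, 142211, 215428 and 91322. Leaving out 1 library at a time with all members kept gave 0 to 17 genes higher and 0 to 10 lower: without PBS 0 and 2, without LNP-cGAMP 17 and 10, without anti-PD-L1 0 and 0, and without the combination 0 and 1. DESeq2 called 7 and 7. The per-library levels below are without the mixed members.

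The genes higher in Cd8-only members were those of memory and cytotoxic CD8 T cells, beside 4 genes of ribosomes and the nucleolus. Ccl5 stood at 0, 48.2, 0 and 63.3 CPM in Cd4-only and at 2010, 2377, 2623 and 2497 CPM in Cd8-only members, or in 2 of 16 and 55 of 90 cells, so the subsets were far apart in every library (log2 difference 6.28, adjusted p = 2.1e-06, edgeR). With the mixed members Ccl5 missed the threshold, with an adjusted p of 0.188. Ly6c2 stood at 0, 0, 0 and 63.3 CPM in Cd4-only and at 303, 1603, 692 and 1084 CPM in Cd8-only members (log2 difference 5.89, adjusted p = 0.000227), against an adjusted p of 0.0793 with the mixed members. Klrd1 had no UMI in Cd4-only members and stood at 464, 288, 399 and 416 CPM in Cd8-only members, found in 55 of 90 cells. Against the limit of 3 UMIs over all Cd4-only members together, Klrd1 was at least 9.04-fold higher in Cd8-only members (adjusted p = 0.00457).

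Nkg7 was found in 1 of 16 Cd4-only and 82 of 90 Cd8-only cells, at 0, 338, 0 and 0 against 921, 1048, 1128 and 756 CPM (log2 difference 3.33, adjusted p = 0.00696). Ctsw, a protease of cytotoxic lymphocytes, was found in 2 and 65 cells (log2 difference 3.39, adjusted p = 0.0146). Plac8, a gene of memory T cells and myeloid cells, stood at 51.4, 48.2, 154 and 190 CPM against 538, 436, 473 and 843 CPM (log2 difference 2.47, adjusted p = 0.00489). For these 6 genes every Cd8-only sum stood above every Cd4-only sum. The Cd4-only levels rest on few UMIs, for Plac8 on 1, 1, 2 and 3 and for Ctsw on 0, 1, 1 and 0. In the Cd4-only sums 3 UMIs stand for 154, 145, 230 and 190 CPM. The other 4 were Npm1 of the nucleolus and the ribosomal protein genes Rps18, Rpl14 and Rpl13.

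The genes lower in Cd8-only, and so higher in Cd4-only, members included some interferon-induced genes. Of the type I interferon response list 25 genes were tested with all members, 2 were lower (Ifi27l2a and Ifit1) and none higher (median log2 difference -0.73, beside 0.02 over all genes tested), and without the mixed members 1 of 17 was lower (Ifi27l2a; median -0.81, beside 0.01) and Ifit1 missed the threshold with an adjusted p of 0.0653. Of the interferon-gamma response list none of 13 was called with all members (median -0.57) and 3 of 12 were lower without the mixed members (Iigp1, Igtp and Gbp2; median -0.84). Of the cytotoxic list 2 of 5 were higher with all members and 4 of 4 without the mixed members. Ly6a, which encodes the surface protein Sca-1, stood at 1901, 5597, 3995 and 3547 CPM in Cd4-only and at 853, 1427, 956 and 1434 CPM in Cd8-only members (log2 difference -1.64, adjusted p = 0.000227). Ifi27l2a, an interferon-induced mitochondrial protein, stood at 1233, 4970, 1383 and 3293 against 600, 1195, 534 and 953 CPM (log2 difference -1.62, adjusted p = 0.000439). Every Cd4-only sum exceeded every Cd8-only sum for both genes. Gene positions on GRCm38 are chr15:74994877-74998031 (-) for Ly6a, chr15:75108158-75111970 (-) for Ly6c2, chr12:103442167-103443680 (-) for Ifi27l2a, chr6:129591782-129598775 (+) for Klrd1 and chr11:83525778-83530518 (-) for Ccl5, so Ly6a and Ly6c2, which differ in opposite directions, are neighbours on chromosome 15.

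The interferon-inducible GTPases Iigp1 and Igtp, which act on vacuoles of intracellular pathogens, were also lower in Cd8-only members. Iigp1 stood at 565, 289, 230 and 760 CPM in Cd4-only and at 111, 127, 102 and 76.7 CPM in Cd8-only members (log2 difference -2.05, adjusted p = 0.0123). Igtp stood at 617, 579, 461 and 1203 against 241, 239, 288 and 339 CPM (log2 difference -1.32, adjusted p = 0.0211). Gbp2, a guanylate-binding protein, passed the threshold (log2 difference -1.64, adjusted p = 0.0281) though not in that direction in anti-PD-L1, at 154 and 227 CPM; it is named after its values were seen. Btg1, a gene of quiescent lymphocytes, stood at 2055, 868, 1536 and 1140 against 711, 422, 571 and 394 CPM (log2 difference -1.38, adjusted p = 0.00489). The remaining called genes were Mcl1, Malat1, Cytip, H3f3b, Slamf6, Itm2b and Smchd1.

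**Figure D4:**
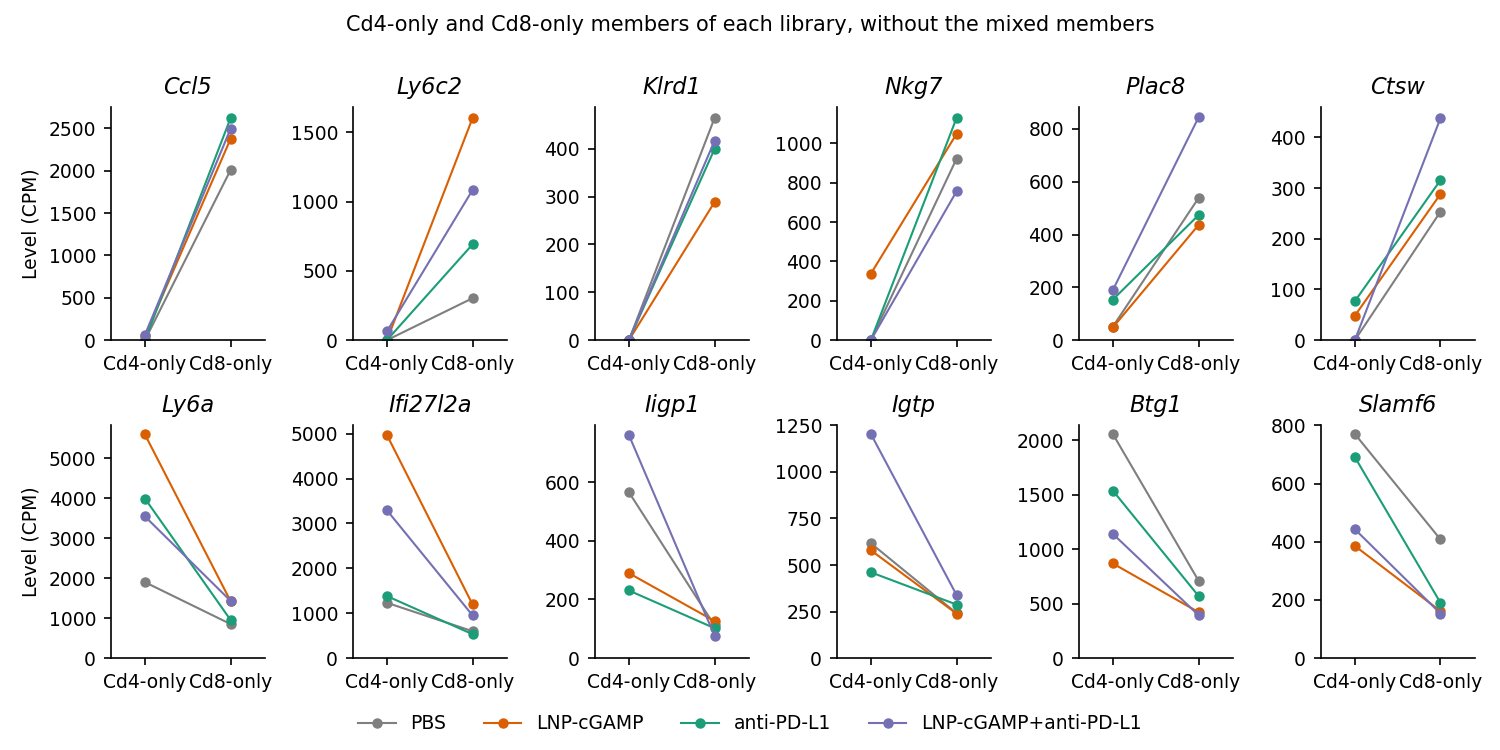
Levels (CPM, y axes from 0) of 12 genes in Cd4-only and Cd8-only members without the mixed members, with a line joining the 2 sums of each library. Ccl5, Ly6c2, Klrd1, Nkg7, Plac8 and Ctsw are higher in Cd8-only members in all 4 libraries, and Ly6a, Ifi27l2a, Iigp1, Igtp and Btg1 are lower.

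Promoters of interferon-induced genes often carry a pair of GAAA repeats, the letters to which interferon-activated factors bind. The motif searched was GAAA, any 2 bases and GAAA again, on both strands (TTTC, any 2 bases and TTTC when read on the other), with overlapping matches counted, in the 250 bases before the start of each gene in RefSeq's promoter table (GRCm38.p6). It was found in 936 of 27025 promoters (3.46%), in 18 of the 42 found of the type I interferon list (42.9%), in 12 of the 20 of the interferon-gamma list in 3 of the 15 of the cytotoxic list and in 1 of the 15 of the naive and central memory list. A match is a description of the letters and not a bound site. The 120 bases before the start are shown for 3 genes whose levels are given here, to set the motif's place side by side; they are written along the gene's strand, 5′ to 3′, with the matches in capitals, for Ifit1 at chr19:34640769-34640888 (+), Igtp at chr11:58199436-58199555 (+) and Isg15 at chr4:156200819-156200938 (-).
Ifit1: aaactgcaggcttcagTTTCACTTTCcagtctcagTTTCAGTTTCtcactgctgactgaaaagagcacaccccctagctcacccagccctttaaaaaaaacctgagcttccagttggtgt
Igtp: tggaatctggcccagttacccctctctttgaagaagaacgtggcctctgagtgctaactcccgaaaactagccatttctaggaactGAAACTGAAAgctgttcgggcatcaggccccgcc
Isg15: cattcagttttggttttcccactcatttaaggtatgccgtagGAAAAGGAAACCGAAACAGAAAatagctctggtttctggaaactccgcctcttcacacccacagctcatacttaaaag
Isg15 holds 3 overlapping matches, Ifit1 holds 2 and Igtp 1. The last bases shown for Ifit1 lie past the gene start that the GRCm38 annotation gives, 34640871. With all members Ifit1 stood at 462, 571, 307 and 317 CPM in Cd4-only and at 53.7, 152, 63.5 and 109 CPM in Cd8-only members, higher in Cd4-only members of each library.

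Between treatments, type I interferon response genes stood higher with LNP-cGAMP than with PBS. A gene counts as higher or lower when the ratio of CPM + 10 is at least 1.5-fold. Over all members, LNP-cGAMP stood above PBS by that margin for 19 of the 45 measured list genes and below it by that margin for 4 (median log2 ratio 0.43), where 19.0% of all 3683 genes counted as higher and 13.7% as lower. Leaving out the mixed members gave 14 and 4 of 38 (median 0.31), beside 12.3% and 16.5% of 3520 genes. In the combination against anti-PD-L1, which shares no library with the first comparison, 10 were higher and 7 lower (median 0.15; 8.80% and 25.7% of all genes), or 18 and 2 without the mixed members (median 0.50; 10.7% and 20.2% of all genes). Higher in both comparisons were 4 of the 45 (1.33% of all genes were), or 11 of the 38 without the mixed members (1.99% of all genes). None of the list was lower in both (2.72% of all genes, 4.15% without the mixed members).

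These 11 genes were Isg15, Irf7, Ifit1, Ifit3, Ifit3b, Ifi27l2a, Ddx58, Oas3, Usp18, Samd9l and Ms4a4c. With the mixed members left out, Isg15, a ubiquitin-like antiviral protein, stood at 145, 275, 57.2 and 236 CPM, and Irf7, the factor that amplifies interferon, at 187, 320, 152 and 310 CPM. Both were then lowest in anti-PD-L1 and higher in each library given LNP-cGAMP than in its counterpart. With all members Isg15 stood at 204, 392, 220 and 227 CPM and Irf7 at 204, 609, 239 and 296 CPM, lowest in PBS, and the combination against anti-PD-L1 was 1.03-fold (0.672 to 1.56) for Isg15 in place of 4.12-fold (2.22 to 7.91). Ifit3, a binder of foreign RNA, stood at 158, 249, 101 and 265 CPM, or 1.58-fold (1.01 to 2.48) in LNP-cGAMP against PBS and 2.63-fold (1.57 to 4.42) in the combination against anti-PD-L1, from 38, 49, 30 and 36 UMIs. Ifi27l2a stood at 739, 1500, 579 and 1195 CPM, or 2.03-fold (1.68 to 2.46) and 2.06-fold (1.65 to 2.57). All members together gave 137, 212, 102 and 255 CPM for Ifit3 and 706, 1961, 483 and 1115 CPM for Ifi27l2a.

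The interferon medians changed sign under other settings. With every cell thinned to 2000 UMIs before the rule was applied the LNP-cGAMP median against PBS was -0.00193, beside -0.02 over all genes. With the mt- limit of 5% the median of the combination against anti-PD-L1 was -0.38, beside -0.33 over all genes. That limit left 6 members in the combination and 12 in anti-PD-L1. Lyz2-rich cells without CD3 held Isg15 at 190, 1049, 300 and 372 CPM, Irf7 at 247, 1273, 354 and 588 CPM and Ifi27l2a at 664, 2621, 893 and 1800 CPM, most of them above the members, and their part in the result was not tested. The other comparisons gave 6 higher and 6 lower for anti-PD-L1 against PBS (median -0.13; 12.8% and 10.5% of all genes), 9 and 6 for the combination against PBS (median 0.15; 8.31% and 23.8%) and 0 and 18 for the combination against LNP-cGAMP (median -0.36; 11.8% and 30.4%). Leaving out the mixed members made the last 4 and 3 (median -0.11; 13.2% and 21.8%), so its 18 lower genes depended on the mixed members, 6 in LNP-cGAMP and 1 in the combination, and made the combination against PBS 15 and 2 (median 0.24; 9.29% and 22%).

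The median over all genes tested was 0.02 in LNP-cGAMP and in anti-PD-L1 against PBS, and below 0 in the combination, at -0.16 against PBS and -0.19 against each single agent. Without the mixed members it was -0.01 and -0.03 for the single agents, and -0.14, -0.10 and -0.13 for the combination against PBS, anti-PD-L1 and LNP-cGAMP. List medians of the combination are to be read against these. The combination library also had the fewest member UMIs, and under TMM scaling its genes past 1.5-fold against PBS were 424 higher and 716 lower in place of 306 and 875.

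**Figure D5:**
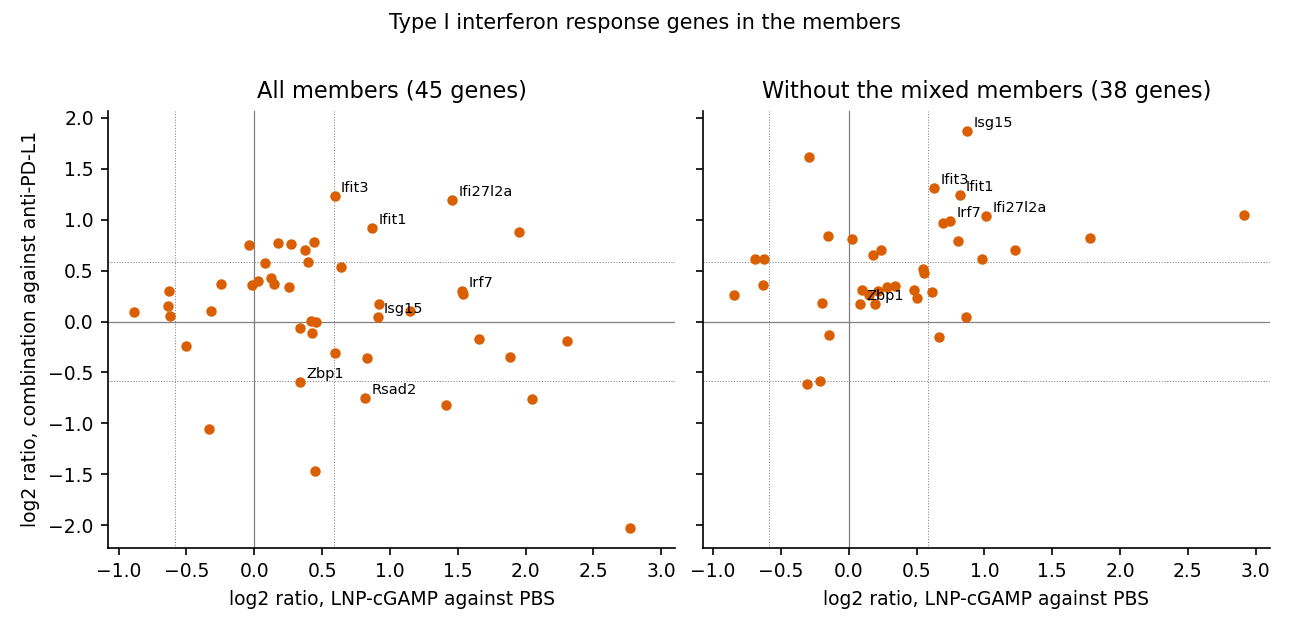
Log2 ratio of each measured type I interferon list gene in LNP-cGAMP against PBS (x axis) and in the combination against anti-PD-L1 (y axis), for all members (45 genes) and without the mixed members (38 genes). Dotted lines mark 1.5-fold; 4 genes pass both upper lines with all members and 11 without the mixed members.

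Interferon-gamma response genes showed another order of the libraries. Against PBS, LNP-cGAMP had 0 of 19 higher and 8 lower without the mixed members (median log2 ratio -0.47; 12.3% and 16.5% of all genes), and the combination against anti-PD-L1 had 6 higher and 1 lower (median 0.33; 10.7% and 20.2%). Gbp2 stood at 581, 275, 320 and 693 CPM and Igtp at 411, 275, 320 and 494 CPM, so both were lowest with a single agent, and with all members at 822, 432, 630 and 661 CPM and 411, 274, 403 and 475 CPM. The level in LNP-cGAMP was 0.473 (0.339 to 0.651) of that in PBS for Gbp2. With all members the list gave 2 higher and 2 lower of 22 in LNP-cGAMP against PBS (median -0.01; 19.0% and 13.7% of all genes). Cd4-only cells were 3 of the 29 LNP-cGAMP members that were not mixed, against 6 of 46 with PBS. Their part in these levels was not tested.

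Of the naive and central memory genes, several stood lower in LNP-cGAMP than in PBS. With the mixed members left out, Ccr7 stood at 299, 325, 394 and 324 CPM and Klf2 at 1166, 1190, 1145 and 1209 CPM, so Klf2 was nearly level. All members together gave 253, 323, 303 and 316 CPM for Ccr7 and 1135, 1407, 1037 and 1232 CPM for Klf2. Tcf7 and Lef1 are not in this list and helped to choose the cells, so their levels only describe the choice. Tcf7 stood at 324, 351, 337 and 428 CPM without the mixed members and at 274, 249, 259 and 399 CPM with all members. Lef1 stood at 286, 259, 269 and 273 CPM without the mixed members and at 246, 160, 212 and 268 CPM with all members. In LNP-cGAMP against PBS 9 of the 18 list genes were lower and 1 higher (median log2 ratio -0.54; 16.5% and 12.3% of all genes), and with all members 8 and 1 (median -0.47; 13.7% and 19.0%). Ets1, a transcription factor of resting lymphocytes, stood at 510, 269, 354 and 339 CPM, or 0.528-fold (0.375 to 0.734) in LNP-cGAMP against PBS. Satb1 stood at 494, 290, 350 and 479 CPM. The higher gene was Nsg2, at 49.8, 137, 80.8 and 103 CPM. With all members Ets1 stood at 485, 189, 283 and 330 CPM, Satb1 at 432, 192, 278 and 482 CPM and Nsg2 at 42.2, 88.6, 63.5 and 103 CPM. In the combination against anti-PD-L1 none of the 18 was higher or lower without the mixed members, beside 10.7% and 20.2% of all genes. With the mixed members 5 were higher, beside 8.80% of all genes. The list medians were -0.10 without and 0.14 with the mixed members, and those of all genes were -0.10 and -0.19. The difference between these comparisons was not tested.

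Memory genes of the CD8 kind differed most clearly by Ly6c2. Ly6c2 stood at 204, 1232, 476 and 922 CPM with all members and at 237, 1520, 589 and 981 CPM without the mixed members, found in 17 of 46, 21 of 29, 28 of 52 and 17 of 25 cells. It was 6.43-fold (4.83 to 8.69) higher in LNP-cGAMP than in PBS, 2.49-fold (1.84 to 3.42) higher in anti-PD-L1 than in PBS and 1.66-fold (1.32 to 2.10) higher in the combination than in anti-PD-L1. The order from PBS through anti-PD-L1 and the combination to LNP-cGAMP was the same with and without the mixed members. It was also the order in Lyz2-rich cells without CD3, at 88.5, 1595, 340 and 718 CPM, and in Gzmb-positive T cells, at 188, 1309, 367 and 758 CPM. The part of free Ly6c2 RNA was not tested.

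Cxcr3, the receptor for interferon-induced chemokines, was high in LNP-cGAMP alone, at 74.7, 310, 90.9 and 88.5 CPM without the mixed members. The level in LNP-cGAMP was 4.15-fold (2.42 to 7.46) that in PBS, and with all members 2.55-fold (1.56 to 4.33), found in 21 of 35 members against 11 of 48. The early activation marker Cd69 stood at 24.9, 81.4, 47.1 and 125 CPM without the mixed members, and was lowest in PBS. It was 5.03-fold (1.89 to 15.6) higher in the combination than in PBS, on few UMIs. Cxcr6, a receptor of tissue-resident T cells, stood at 87.2, 45.8, 216 and 59.0 CPM. With all members Cd69 stood at 24.6, 51.5, 43.9 and 117 CPM and Cxcr6 at 123, 25.7, 178 and 61.9 CPM. The integrin Itgae, which holds resident T cells in epithelium, was found in 1 member.

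Cytotoxic genes were higher in each single-agent library than in PBS once the mixed members were left out, with 5 of 9 higher and none lower in both (median log2 ratios 0.81 for LNP-cGAMP and 0.59 for anti-PD-L1). The shares of all genes past the same margin were 12.3% upward and 16.5% downward for LNP-cGAMP, and 9.38% and 12.4% for anti-PD-L1. Ccl5 stood at 1531, 3076, 2765 and 2610 CPM, lowest in PBS and close together in the treated libraries. The activating receptor Klrk1 (NKG2D) stood at 83.0, 168, 199 and 111 CPM. In the combination against anti-PD-L1 none of the 9 was higher and 3 were lower (10.7% and 20.2% of all genes). With all members the counts against PBS were 4 higher and 1 lower for LNP-cGAMP and 1 and 1 for anti-PD-L1, Ccl5 stood at 1367, 2127, 2004 and 2436 CPM and Klrk1 at 123, 109, 215 and 124 CPM. Within Cd8-only members alone, mixed ones included, the log2 ratio of Ccl5 in LNP-cGAMP against PBS was -0.07.

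Checkpoint receptors were low throughout and lower in LNP-cGAMP than in PBS for 4 of 5 without the mixed members (median log2 ratio -0.80; 16.5% of all genes), or for 4 of 4 with all members (median -1.65; 13.7%). Without the mixed members Lag3 stood at 91.3, 15.3, 37.0 and 44.2 CPM, Ctla4 at 99.6, 25.4, 47.1 and 22.1 CPM and Pdcd1 at 87.2, 45.8, 155 and 73.7 CPM. With all members these were 84.3, 11.4, 29.3 and 41.3 CPM for Lag3, 84.3, 17.2, 63.5 and 27.5 CPM for Ctla4 and 116, 34.3, 115 and 68.8 CPM for Pdcd1. These levels rest on few cells: the top 3 members of each library held 55.2%, 41.3%, 63.3% and 70% of the checkpoint list's UMIs. Proliferation genes were higher in anti-PD-L1 than in PBS for 9 of 13 without the mixed members (median 0.93; 9.38% of all genes) and for 8 of 13 with them (median 0.78; 12.8%). A single anti-PD-L1 cell held 575 of the 1300 proliferation UMIs of that library. With cells of 10 or more such UMIs left out in every library, the summed level was 1068, 1245, 1247 and 1043 CPM. That limit left out 18, 21, 18 and 5 members by the same UMIs that are summed. The levels that remain only describe the other cells, and their likeness between libraries is no result. Without the mixed members, few MHC class I presentation genes passed the margin for higher or lower in LNP-cGAMP against PBS. Of 20 genes 1 was higher and 1 lower (12.3% and 16.5% of all genes). The list median was 0.26 on the log2 scale, beside -0.01 over all genes. With all members the summed level of the list was 12779, 16739, 14468 and 14429 CPM, lowest in PBS and highest in LNP-cGAMP.

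Among genes ranked by the counting interval over both comparisons of an agent, those higher with LNP-cGAMP with all members included Gm10073, H2-Q7, Gm10076, Ccl5, Grcc10, Ifit3, Malat1 and Acp5. Gm10073 and Gm10076 may share reads with near-identical copies. H2-Q7, a class Ib MHC gene, stood at 555, 766, 625 and 936 CPM, and at 598, 925, 761 and 907 CPM without the mixed members. Ifi27l2a, Ly6c2, Ifit1, Saa3, Spp1, Rnf213 and Tmsb10 also ranked high but lay under the Lyz2-rich cells of the same library.

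The genes lower with LNP-cGAMP were Ifitm1, Cenpa, H2-Ab1, Rora, Cd163l1, Cxcr6, Timp1, Cd74, H2-Eb1 and H2-Aa. MHC class II genes among them are expressed by antigen-presenting cells. The dendritic cell marker list, which holds these genes, stood at 3347, 1961, 4332 and 3741 CPM in Lyz2-rich cells without CD3. Cd74 stood at 2070, 1381, 3283 and 784 CPM with all members and at 133, 10.2, 125 and 59.0 CPM without the mixed ones, and H2-Aa at 784, 506, 1147 and 337 against 41.5, 15.3, 50.5 and 7.37 CPM, so most of their UMIs lay in mixed members, and both stayed lower with LNP-cGAMP in each comparison. H2-Eb1 turned from lower to higher in the combination against anti-PD-L1 without them, at 1.31 on the log2 scale, and Ifitm1 likewise at 0.84. Rora, a factor of innate-like and helper T cells, kept its direction without them. It had 23, 7, 28 and 0 UMIs with all members, and stood at 91.3, 20.3, 77.4 and 0 CPM without the mixed ones, and was then 0.223-fold (0.0558 to 0.656) in LNP-cGAMP against PBS. Cd163l1, a gene of gamma-delta T cells, had 23, 0, 27 and 1 UMIs with all members and 7, 0, 11 and 1 without the mixed ones.

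For anti-PD-L1 over its comparisons with PBS and of the combination with LNP-cGAMP, 0.815% of all genes were higher in both and 2.99% lower (1.45% and 2.67% without the mixed members). The ranked genes higher with all members were Gnb2l1, Psme1, Topors, Fam169b, Vars and Ccl5, and those lower were Cd86, Cd83, Map1lc3b, Bzw1 and Eif1. Gnb2l1, which encodes the ribosome scaffold RACK1, stood at 2091, 1741, 2548 and 2993 CPM, and at 2245, 2410, 2936 and 3067 CPM without the mixed members. Ranked again without the mixed members, the higher genes were Gnb2l1, Vars and Bbc3, and Vars, a valine tRNA ligase, stood at 70.6, 61.0, 135 and 155 CPM, against 66.8, 42.9, 117 and 151 CPM with all members. Cd86 and Cd83, which antigen-presenting cells express, were not among the lower genes then. Itga4, the integrin chain that carries T cells across inflamed vessels, stood at 149, 112, 77.4 and 14.7 CPM without the mixed members and at 151, 129, 73.2 and 96.3 CPM with all members. In the combination against PBS, Itga4 was 0.0987-fold (0.0115 to 0.383) without the mixed member, on 2 UMIs in the combination, so this low level depended on leaving out that 1 cell.

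The pools also differed in the sex of their cells. A Y-linked UMI without Xist was found in 30, 25, 12 and 0 members and Xist without a Y-linked UMI in 0, 0, 28 and 14, so PBS and LNP-cGAMP members looked male, the combination members looked female and anti-PD-L1 held both. Sex and treatment cannot be told apart in comparisons with the combination, anti-PD-L1 and PBS were unbalanced in it, and the labels used here give no sex. Among the members with a Y-linked UMI and no Xist alone, anti-PD-L1 against PBS had 799 genes higher and 801 lower of 3717, and 12 higher and 7 lower of 47 type I interferon genes (median log2 ratio -0.12). LNP-cGAMP against PBS in those cells had 22 and 2 of the 47 (median 0.52), beside 819 genes higher and 560 lower of all 3717.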

How the data were processed

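The deposited values were UMI counts per gene and barcode, which the authors made with Cell Ranger (version 3.0.2, per the file headers) on mm10, per the submitters' processing notes. They are not normalized. The matrices hold 27998 genes and near-empty droplets. The labels give 2 versions of the 3′ kit and the one used is not settled here. Library totals were 86269137, 68828158, 87696440 and 88855120 UMIs.

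Members were selected by the rule given at the start (Python 3.11.15, numpy 2.4.6, scipy 1.17.1, pandas 2.3.3), and their counts were summed per library. No doublet caller was run. The members and gene lists were chosen with earlier results of these data known. CPM is the share of summed UMIs, per 1000000. A gene was compared if its UMIs over all libraries came to 20 or more and 1 library or more had 50 CPM, and log2 ratios were taken with 10 CPM added. Shares have Clopper-Pearson, levels Poisson and folds conditional binomial intervals. PCR and pooling errors are not covered. Cd8-only against Cd4-only sums used edgeR 4.0.16 (R 4.3.3) with TMM, filterByExpr and library as a block, because both sums of a library come from the same mice. DESeq2 1.42.0 was an alternative. The fold and edgeR steps were tested on simulated data.

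The genes named were fixed by rank: the 10 highest and 10 lowest by the counting bound nearest 1, taken per agent over its 2 comparisons without a common library, and once more in the combination against PBS, with genes below the Lyz2-rich cells set apart; for Cd8-only against Cd4-only, the 15 of lowest p per direction with equal sign in all 4 libraries; and the genes of the lists. Alternatives changed the UMI, mt-, CD3, Gzmb, marker and Lyz2 limits, thinned or reweighted cells, subtracted the near-empty profile, and changed the pseudocount, filter and scaling. Leaving out the mixed members was added after the data were seen. Tables of 31 lists were computed, and those described are the ones that bear on T cell state. A few genes that the rule names are not reported here.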

Additional observations from a re-analysis of the deposited data

Results flagged for a closer look

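The medians of 3 gene lists lay on opposite sides of 0 by more than 1.5-fold in the 2 comparisons of one agent that share no library; these differences were not tested, and each group is 1 library. Memory and tissue residency genes had a median log2 ratio of 0.77 in LNP-cGAMP against PBS and -0.88 in the combination against anti-PD-L1, and 0.27 and -0.79 without the mixed members. Glycolysis genes had medians of 0.60 and -0.95, and -0.02 and -0.58 without the mixed members.

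Macrophage markers had medians of 2.21 and -1.20 in the same comparisons, and -1.10 and 1.18 without the mixed members. For anti-PD-L1 they had medians of 0.87 against PBS and -2.44 in the combination against LNP-cGAMP, and -1.26 and 0.99 without the mixed members.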

How the results depend on the processing

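Results were recomputed under each alternative, changing 1 choice at a time. The share of kept cells moved with an mt- limit of 5% (0.498%, 0.594%, 0.379% and 0.179%), a Lyz2 limit of 5 per 10000 (PBS 0.993%), CD3 of 1 or more (LNP-cGAMP 1.33%) and thinning to 2000 UMIs (combination 1.09%). The share of T cells moved with the mt- limit (PBS 37.1%, anti-PD-L1 19.4%, combination 4.65%), with 1 Gzmb UMI allowed (LNP-cGAMP 17.3%, combination 21.0%) and with cells thinned first (combination 23.4%). The Cd8-only share moved with the mt- limit (PBS 100%, anti-PD-L1 66.7%), the Lyz2 limit (PBS 95.2%) and thinning (combination 95%). The type I median against PBS became 0.23 (CD3 of 1 or more) and -0.00193 (thinned) for LNP-cGAMP, -0.35 (thinned), -0.84 (Cd4-only) and 0.17 (Cd8-only) for anti-PD-L1, and -0.36 (mt- limit), -0.33 (thinned) and 0.34 (Cd8-only) for the combination. Against anti-PD-L1 the combination gave -0.38 (mt- limit), -0.13 (thinned), 0.50 (without the mixed members) and 1.32 (Cd4-only), and against LNP-cGAMP -0.89 (mt- limit) and 0.10 (Cd4-only). Under the mt- limit the median over all genes in the combination was -0.17 against PBS, -0.33 against anti-PD-L1 and -0.28 against LNP-cGAMP. The causes were not tested.

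Cd8-only against Cd4-only gave 7 genes higher and 7 lower with DESeq2, 176 and 16 with no filter, 3 and 1 with no replicate block, 10 and 13 without the mixed members, and 0 to 17 higher and 0 to 10 lower with 1 library left out. Over all genes, the counts past 1.5-fold ran over the alternatives from 236 to 2055 higher and 131 to 1674 lower in LNP-cGAMP against PBS (698 and 505 as reported), 164 to 1460 and 122 to 1409 in anti-PD-L1 against PBS (470 and 388), 90 to 1464 and 188 to 2794 in the combination against PBS (306 and 875), 106 to 1375 and 186 to 2701 against anti-PD-L1 (324 and 948), and 141 to 1643 and 243 to 3337 against LNP-cGAMP (433 and 1118). No paired analysis was possible between treatments because each has 1 library.

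Directions reversed for 24 values of named genes. With Cd4-only members these were, in LNP-cGAMP against PBS, Ifitm1 (3.67), H2-Ab1 (4.83), Rora (2.88), Timp1 (2.39), H2-Eb1 (5.48) and H2-Aa (5.85); in the combination against anti-PD-L1, Cd74 (0.65) and H2-Aa (2.87); Fam169b in anti-PD-L1 against PBS (-4.04); Map1lc3b in the combination against LNP-cGAMP (0.078); and in the combination against PBS, Cd69 (-2.62), S100a9 (4.32) and S100a8 (0.28). With Cd8-only members they were Ccl5 in LNP-cGAMP against PBS (-0.067), H2-Ab1 (1.11), H2-Eb1 (1.82) and H2-Aa (0.39) in the combination against anti-PD-L1, and S100a8 in the combination against PBS (0.17). Leaving out the mixed members reversed Ifitm1 (0.84) and H2-Eb1 (1.31) in the combination against anti-PD-L1, Map1lc3b against LNP-cGAMP (0.088) and Cbfa2t3 against PBS (-0.50), and with cells weighted equally H2-Eb1 (0.57) and H2-Aa (0.64) in LNP-cGAMP against PBS. Male-called members could not be compared for the combination, which had 0.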
